A study of Homo sapiens with 3 samples.

Results

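The 36 genes described here encode integrin subunits (26 genes) and laminin chains (10 genes), taken as a given list and found by symbol among 19974 protein-coding genes on chromosomes 1 to 22 and X. Their chromatin was read from 2 peak lists of HCC1599, a breast cancer cell line of the triple-negative kind, established from a tumour and known to grow as floating aggregates. The study aimed to locate H3K27ac, an acetylated histone mark of active promoters and enhancers, and H3K4me3, a trimethylated mark of promoters, in cells described as MARCO-TST positive. The 3 samples are all this line, with no treatment, genotype or time named: 1 library per mark and 1 input without antibody. With 1 library per mark there is no replicate check and no test, so that differences between genes or classes are given as values, and the read depth behind the lists is unknown. No peak means that none was called.

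Integrins are receptors of 1 α and 1 β chain that hold cells to the matrix and to one another. Laminins are trimers of an α, a β and a γ chain and form the network of basement membranes. In breast epithelium the α6β4 integrin binds laminin-332 in hemidesmosomes and α3β1 and α2β1 bind laminin and collagen, while the β2 and β7 families serve leukocytes and many other α chains serve muscle, cartilage, vessels or fibroblasts. By these textbook roles the members were put in 4 classes: epithelial basement membrane (10 genes), epithelial αv receptors (4), leukocyte (8) and stromal (14, which takes in muscle, vessel, cartilage, platelet and embryonic genes). A class names a role and does not mean that its genes, ITGB1 for example, are used by those cells alone. The classes were set with earlier results of these data known, so contrasts between them were not fixed independently of the peaks.

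The state of a gene was read at its start. RefSeq (GRCh38.p14) listed 1 or more starts for 25 members, and for the other 11 (ITGA3, ITGB4, ITGAD, ITGAL, ITGAX, ITGB2, ITGA7, ITGA9, ITGB3, LAMA1 and LAMC3) either annotated end of the gene was used. A mark was called where a peak overlapped the 1 kb either side by at least 1 bp. The authors' score per peak has no stated unit, starts at 30, piles up at 3100, and is used here only to describe peaks within a list.

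Both marks were commoner at the starts of epithelial markers than at those of other cell types, which does not test the identity of the line. Of 5 epithelial markers, EPCAM, CDH1, KRT5 and KRT18 had both marks at the start and KRT8 had H3K27ac only. None of 5 leukocyte, 5 fibroblast and 3 endothelial markers had both: CD14, COL1A1 and KDR had H3K4me3 only and the other 10, PTPRC and CD3E among them, had neither. Of all protein-coding genes 57.7% had both, 12.3% H3K4me3 only, 2.27% H3K27ac only and 27.8% neither.

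Promoter sequence is shown for members of the epithelial basement membrane and leukocyte classes. Each stretch runs from 250 bases upstream up to the listed start, 5′ to 3′ on the strand of the gene (RefSeq, GRCh38.p14). Capitals mark GC boxes (GGGCGG), the AP-1 site TGACTCA and the TATA box TATAAA, each searched on both strands. The members that follow are the first 3 epithelial basement membrane genes, in list order, with both marks and a listed start.
ITGA2 (chr5:52989102-52989351, plus strand): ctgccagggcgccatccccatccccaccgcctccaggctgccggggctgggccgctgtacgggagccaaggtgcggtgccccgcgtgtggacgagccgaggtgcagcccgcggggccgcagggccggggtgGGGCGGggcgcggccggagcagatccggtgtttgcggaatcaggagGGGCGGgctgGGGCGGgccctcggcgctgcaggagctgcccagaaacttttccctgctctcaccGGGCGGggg
ITGA6 (chr2:172427086-172427335, plus strand): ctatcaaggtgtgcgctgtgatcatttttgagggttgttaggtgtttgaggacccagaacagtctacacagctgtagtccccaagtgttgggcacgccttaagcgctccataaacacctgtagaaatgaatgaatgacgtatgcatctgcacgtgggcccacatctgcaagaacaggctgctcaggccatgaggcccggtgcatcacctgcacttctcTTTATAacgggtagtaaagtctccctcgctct
ITGB1 (chr10:32958231-32958480, minus strand): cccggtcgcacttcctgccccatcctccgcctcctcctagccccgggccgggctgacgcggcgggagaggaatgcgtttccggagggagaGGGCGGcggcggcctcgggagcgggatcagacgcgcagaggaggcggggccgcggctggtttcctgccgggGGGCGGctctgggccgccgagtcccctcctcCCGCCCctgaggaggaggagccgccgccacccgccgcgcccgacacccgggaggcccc

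H3K4me3 peaks covered all 250 bases in each of these, and H3K27ac peaks covered 225, 61 and 250 of them. These genes were chosen for having both marks, so the cover follows in part from that choice. The stretches held 26, 8 and 32 CpG dinucleotides. ITGA6 and ITGB1 each have another listed start, not shown. For ITGA6 that at 172427586 had 30 CpG and 3 GC boxes, and both marks covered all 250 bases. For ITGB1 that at 32935558 had 4 CpG and no GC box, and neither mark covered any base. The leukocyte genes with a listed start follow for comparison, without ITGA4, whose 250 bases run into its annotated gene. ITGA4 was also the only gene among them with a mark at its start, so leaving it out sharpens the contrast shown.
ITGAE (chr17:3801189-3801438, minus strand): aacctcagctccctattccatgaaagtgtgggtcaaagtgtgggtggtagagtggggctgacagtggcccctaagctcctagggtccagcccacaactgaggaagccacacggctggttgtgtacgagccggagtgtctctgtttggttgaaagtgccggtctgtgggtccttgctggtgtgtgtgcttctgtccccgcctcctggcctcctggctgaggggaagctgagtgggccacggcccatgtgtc
ITGAM (chr16:31259725-31259974, plus strand): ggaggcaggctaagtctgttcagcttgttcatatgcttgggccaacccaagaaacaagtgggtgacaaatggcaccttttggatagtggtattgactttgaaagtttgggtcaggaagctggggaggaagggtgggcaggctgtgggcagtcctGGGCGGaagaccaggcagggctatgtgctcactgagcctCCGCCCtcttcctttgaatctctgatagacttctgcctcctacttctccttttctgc
ITGB7 (chr12:53207252-53207501, minus strand): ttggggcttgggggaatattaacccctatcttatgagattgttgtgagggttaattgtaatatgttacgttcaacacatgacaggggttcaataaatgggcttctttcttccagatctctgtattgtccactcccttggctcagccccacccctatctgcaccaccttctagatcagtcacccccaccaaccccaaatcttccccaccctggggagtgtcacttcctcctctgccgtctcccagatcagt

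Neither mark covered any base of these 3, and they held 6, 2 and 2 CpG. In ITGA4 the stretch held 25 CpG, and H3K4me3 covered all of it and H3K27ac none. A GC box was present in 10 of the 12 promoters listed for epithelial basement membrane genes and in 1 of the 4 for leukocyte genes, that of ITGAM. The 12 promoters belong to 8 genes and are not independent. LAMB3 has 3 listed starts, and the stretches upstream of 209652425 and 209652329 overlap and share a GC box that counts for both. It was present in 3 of 7 for αv receptor genes and 3 of 9 for stromal genes, which makes 17 of 32 member promoters (53.1%), against 53.7% of all. Over 22140 promoters of protein-coding genes the median was 16 CpG, and it was 20 for promoters of genes with both marks at the start, 18 with H3K4me3 only, 3 with H3K27ac only and 4 with neither. CpG count and state did not go together in every member: the ITGB6 promoter held 0 CpG and the gene had both marks, and ITGA8 held 19 and had neither.

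Both marks lay at the start of 17 of the 36 members (47.2%), where 57.7% of all protein-coding genes had both. A further 9 members had H3K4me3 only (25%, against 12.3% of all genes), 0 had H3K27ac only (2.27% of all genes) and 10 had neither (27.8% of both). The classes differed in their counts. Of the epithelial basement membrane genes 8 of 10 had both marks, 1 had H3K4me3 only and 1 had neither. All 4 αv receptor genes had both. Of the stromal genes 4 of 14 had both, 7 had H3K4me3 only and 3 had neither, and of the leukocyte genes 1 of 8 had both, 1 had H3K4me3 only and 6 had neither. The contrast was seen at starts. When a peak of each mark was counted anywhere across the gene span plus 1 kb, both marks were present at 10 of 10 epithelial basement membrane, 14 of 14 stromal and 3 of 8 leukocyte genes, against 68.2% of all protein-coding genes. Longer spans offer more room for peaks, and gene length was not adjusted for. Median lengths were 68690, 110500 and 46650 bp in these classes, against 24170 bp for all protein-coding genes.

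**Figure D1:**
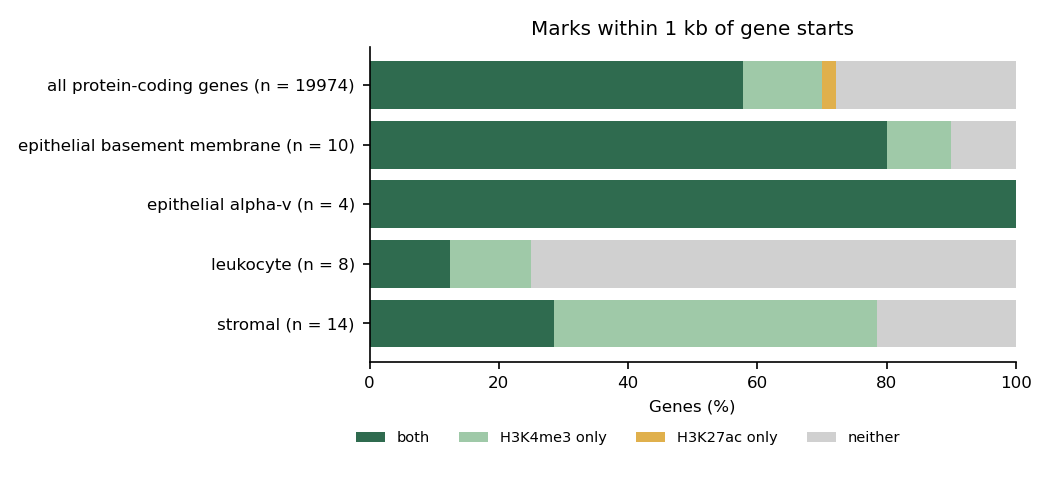
Share of genes (%) by the marks found within 1 kb of the start, for all 19974 protein-coding genes and the 4 classes, 1 library per mark. H3K4me3 without H3K27ac makes up the largest piece of the stromal bar (7 of 14 genes), and neither mark that of the leukocyte bar (6 of 8).

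Integrin subunits of the epithelial basement membrane all carried both marks at their starts, but their H3K27ac ranged widely. ITGB1 (10:32900318-32958230, minus strand) encodes β1, the common partner of the α2, α3 and α6 chains. Its upstream start had an H3K4me3 peak of 4709 bp and an H3K27ac peak of 2346 bp with a score of 2665, while its listed internal start had no peak of either mark within 1 kb. Among the 11525 genes with both marks the H3K27ac score of ITGB1 stood at percentile 83.9.

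The α chains had H3K4me3 of up to middling width and low-scoring H3K27ac among genes with both marks. ITGA6 (2:172427336-172506459, plus strand), the partner of β1 and β4 in laminin receptors, had 2391 bp of H3K4me3 (score 2821) and 1151 bp of H3K27ac (score 144). ITGA2 (5:52989352-53094779, plus strand), the collagen-binding α2 chain, had 3245 bp of H3K4me3 at a score of 3100, and 2 H3K27ac peaks of 1304 and 575 bp that scored 33.2 and 89.1. ITGA3 (17:50056110-50090481), the α3 chain of a laminin-332 receptor, had 3861 bp of H3K4me3 at 3100 across its lower-coordinate end and 1607 bp of H3K27ac at a score of 177, which ended 674 bp outside the gene. ITGA3 had no H3K27ac peak inside its span, and the call was lost with 500 bp either side. The wider peak of ITGA2 ranked at percentile 0.963 by H3K27ac score among genes with both marks, ITGA6 at 18.1 and ITGA3 at 21.3. By H3K4me3 width they stood at percentiles 36.4, 14 and 53.3 of the same genes.

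ITGB4 (17:75721459-75757818) encodes β4, which pairs with α6 and anchors hemidesmosomes to keratin filaments. H3K4me3 of 3128 bp with a score of 2400 covered its lower-coordinate end. H3K27ac lay on either side of that end, as a peak of 522 bp with a score of 54.5 just outside and a peak of 1835 bp with a score of 468 that began 1014 bp inside. Beyond that end a wider H3K27ac peak of 5150 bp with a score of 1514 lay 29519 to 34668 bp outside the gene. It overlapped an H3K4me3 peak of 624 bp and lay on the neighbouring gene SAP30BP. The other H3K27ac peaks of that flank, except the 522 bp peak, lay on SAP30BP too. ITGB4 and its flanks held 9.53 H3K27ac peaks per 100 kb, the second highest density of its class, and on the far side 3 of those peaks lay within 1 kb of the starts of GALK1, H3-3B and UNK. The peak at UNK was the widest of the window, with 5211 bp and a score of 3100.

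With peaks scoring at least 100 only, ITGA2 and ITGB4 lost their H3K27ac call and 6 of the 10 genes of the class kept both marks, against 50.7% of all protein-coding genes.

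Laminin chains of epithelial basement membranes fell into strong and weak starts. Laminin-511, the broadly expressed epithelial form, is built from α5, β1 and γ1. LAMA5 (20:62309065-62367312, minus strand), the α5 chain gene, carried 5583 bp of H3K4me3 with 6981 bp of H3K27ac (score 2793), and LAMC1 (1:183023420-183145592, plus strand), the γ1 chain gene, had 4931 and 3764 bp, each with a score of 3100. LAMB1 (7:107923799-108003161, minus strand), the β1 chain gene, had 2712 bp of H3K4me3 at 3100 and no H3K27ac peak nearer than 34552 bp.

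LAMA5 had the largest share of its span under H3K27ac in the class. Its 7 H3K27ac peaks covered 30.2% of the gene, against a median of 3.74% over all protein-coding genes, and 3 of them, of 4283, 2011 and 2886 bp, lay on the antisense gene LAMA5-AS1 between 8012 and 17504 bp inside LAMA5. A further H3K27ac peak of 7344 bp with a score of 2306 stood 6497 bp upstream. Its window held 11.4 H3K27ac peaks per 100 kb, against a median of 3.96 over all genes.

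Laminin-332, the ligand of α6β4 in hemidesmosomes, holds the α3 and β3 chains. LAMB3 (1:209614870-209652425, minus strand), the β3 chain gene, had both marks near its 3 listed starts, but its H3K4me3 peak of 1770 bp scored 169 and stood at percentile 5.02 by width among genes with both marks. H3K27ac there measured 1326 bp and scored 350, and no other H3K27ac peak lay inside the gene.

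LAMA3 (18:23689453-23955066, plus strand), the α3 chain gene, has a listed start at 23873020, inside its span; the short α3A chain is known to be made from an internal promoter. No H3K27ac peak lay nearer to that start than 126097 bp and no H3K4me3 peak nearer than 140545 bp. The lower-coordinate end of the gene instead had 2041 bp of H3K4me3 with a score of 1884 and no H3K27ac within 1 kb. A single H3K27ac peak in the gene, 1461 bp wide with a score of 172, began 17139 bp inside that end. The promoter of the internal start is shown because neither mark was called over its 2 AP-1 sites, in opposite orientation, and it was chosen after its values were seen.
LAMA3 (chr18:23872770-23873019, plus strand): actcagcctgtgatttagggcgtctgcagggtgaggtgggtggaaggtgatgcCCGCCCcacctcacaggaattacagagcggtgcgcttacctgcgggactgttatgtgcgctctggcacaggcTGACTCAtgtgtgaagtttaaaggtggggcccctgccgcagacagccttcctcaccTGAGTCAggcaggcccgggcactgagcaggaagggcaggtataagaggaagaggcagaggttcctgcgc

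An AP-1 site was present in 3.45% of the 22140 promoters and a TATA box in 9%. Besides LAMA3, the only member promoter with an AP-1 site was that of an internal start of LAMB3. A match gives letters only, not a bound site.

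**Figure D2:**
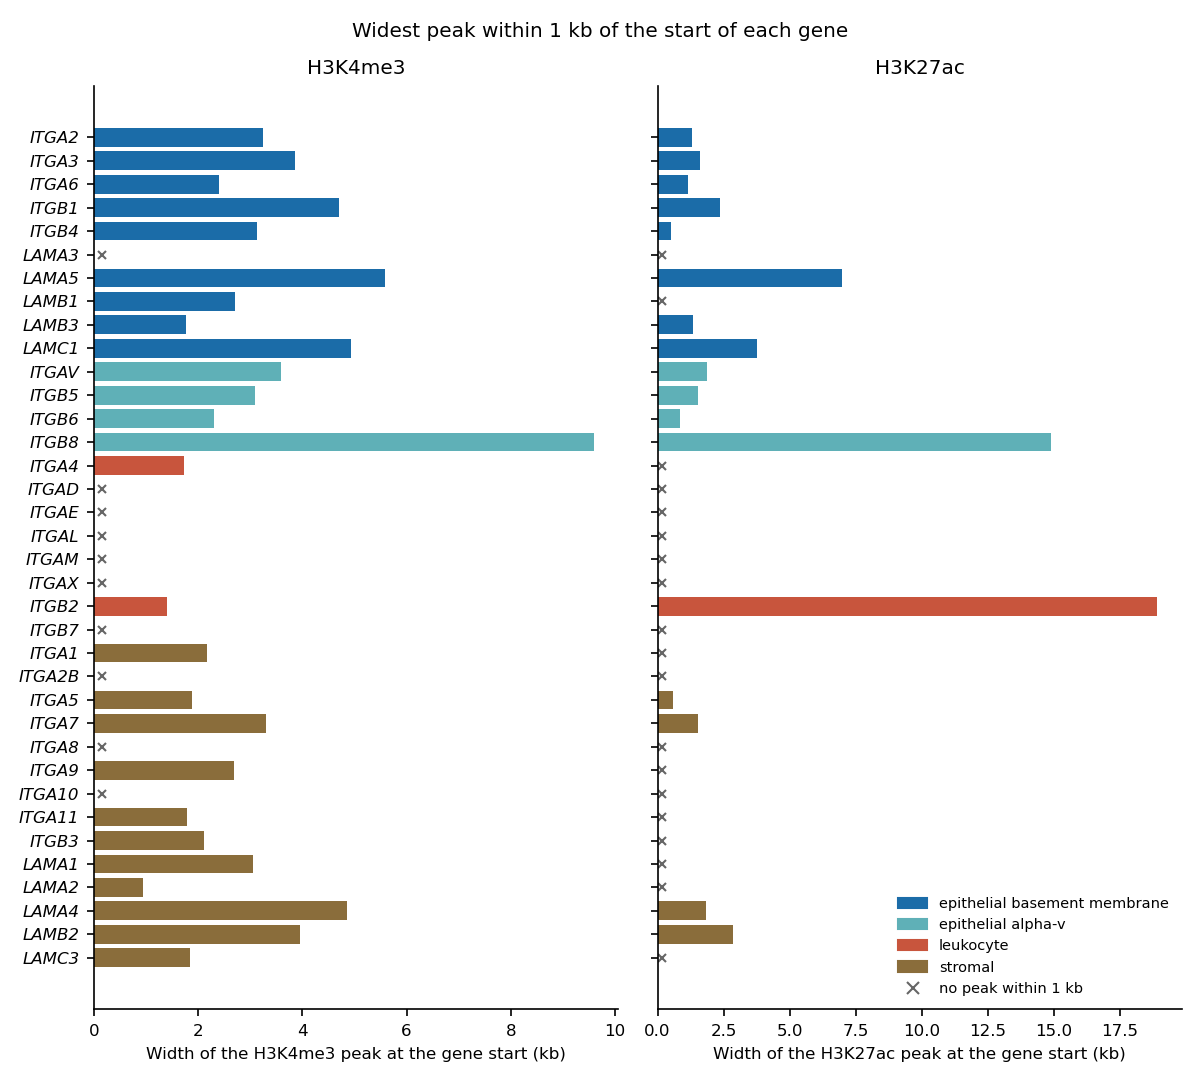
Width (kb) of the widest peak of each mark within 1 kb of the start of each of the 36 members, coloured by class, with crosses where no peak was called. ITGB8 has 9589 bp of H3K4me3 and 14899 bp of H3K27ac, ITGB2 has 18908 bp of H3K27ac over 1409 bp of H3K4me3, and most stromal and leukocyte genes have a cross under H3K27ac.

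The αv receptors bind vitronectin, fibronectin and the latent form of TGF-β, and all 4 genes had both marks. ITGB8 (7:20329766-20415754, plus strand), whose β8 chain helps to activate latent TGF-β, had the widest H3K4me3 of all members. The H3K4me3 peak at its start spanned 9589 bp (percentile 98.3 among genes with both marks) and the H3K27ac peak 14899 bp (percentile 99.4), each scoring 3100. Another H3K27ac peak, 16015 bp wide and also at 3100, began 10155 bp downstream of the listed start, just after the end of the other. In all H3K27ac covered 36.4% of ITGB8 in 6 peaks and H3K4me3 was called in 9 pieces, the last of which ended 25699 bp downstream of that start. No peak of either mark lay in its 50 kb flanks beyond those reaching into the gene.

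ITGAV (2:186590056-186680901, plus strand), the αv chain gene, carried 3592 bp of H3K4me3 with 1864 bp of H3K27ac (score 639), close to the medians of 3742 and 2040 bp over all genes with both marks. ITGB5 (3:124761948-124901418, minus strand), the β5 chain gene, had its marks at the internal starts: 3091 bp of H3K4me3 at 3100 and 1533 bp of H3K27ac at 130 lay there, while the upstream start had 1606 bp of H3K4me3 at 128 and no H3K27ac. ITGB5 held 16 H3K27ac peaks in its span, more than any other member, but the highest scored 245.

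ITGB6 (2:160099671-160200272, minus strand), the β6 chain of epithelia in repair and in carcinomas, was the opposite of ITGB8. Its start had 2305 bp of H3K4me3 (score 932) and an H3K27ac peak of 862 bp that scored 38.7, a call that was lost among peaks scoring at least 100. Upstream of it 10 H3K27ac peaks lay within 50 kb, the strongest with a score of 619 at 25499 to 27175 bp, and 1 of the 10 overlapped H3K4me3. None of them lay at the start of another protein-coding gene.

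Leukocyte integrin genes mostly had neither mark at their starts. ITGAL, ITGAX and ITGAD, which encode α chains of β2 integrins in lymphocytes and myeloid cells, had no peak of either mark in their spans, and neither did ITGB7, the β7 chain of gut-homing lymphocytes. ITGAM, the myeloid αM chain, had no H3K4me3 in its span but 3 H3K27ac peaks, of which the strongest began 4034 bp inside the gene with a width of 2325 bp and a score of 385. ITGA4 (2:181457205-181538940, plus strand), the α4 chain of lymphocytes and other cells, had 1718 bp of H3K4me3 at 2063 and its nearest H3K27ac, scoring 35.2, was 63391 bp away.

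ITGAE (17:3714628-3801188, minus strand), the αE chain that binds E-cadherin, held 3 peaks of each mark in its span though its own start had neither. The strongest, 4239 bp of H3K4me3 at 3100 and 2202 bp of H3K27ac at 846, overlapped HASPIN, a kinase gene annotated inside ITGAE, and the end of P2RX5. A second H3K4me3 peak of 1200 bp with a score of 2063 lay 45018 bp inside ITGAE on no other annotated gene.

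ITGB2 (21:44885953-44928815), the shared β2 chain of leukocyte integrins, stood apart from its class. An H3K27ac peak of 18908 bp at 3100, at percentile 99.7 by width among genes with both marks, covered its higher-coordinate end and ran on to the start of SLX9, a neighbouring gene. Inside ITGB2 another H3K27ac peak of 6611 bp, also at 3100, overlapped no H3K4me3, and H3K27ac covered 36.4% of the gene in 4 peaks. The H3K4me3 beside that end was 1409 bp wide with a score of 103, at percentile 2.57, whereas the H3K4me3 peak at SLX9 was 8541 bp wide at 3100. RefSeq's start of ITGB2 was not listed, so the end with both marks was taken as it stands. The antisense gene ITGB2-AS1 and the non-coding gene LINC01547 also lie under the 18908 bp peak, and to which of the 4 genes it belongs cannot be told apart.

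Stromal integrin genes carried H3K4me3 more often than H3K27ac at their starts, where 4 of 9 had H3K4me3 only and 0 had H3K27ac only. Over all protein-coding genes these shares were 12.3% and 2.27%. ITGA1, the α1 collagen receptor, ITGA9, ITGA11 and ITGB3 had H3K4me3 only, with widths of 1785 to 2686 bp and scores of 417 to 2467. The H3K4me3 peak at ITGA1 also lay at the listed start of PELO, a gene inside ITGA1. A wider H3K4me3 peak of 5711 bp at 3100, 10320 bp further in, lay on PELO and its antisense gene and overlapped the strongest H3K27ac peak of ITGA1, which scored 675.

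ITGA5 and ITGA7 had both marks, each with a limit. ITGA5 (12:54395261-54419266, minus strand), the fibronectin receptor α5, had 1887 bp of H3K4me3 (score 1328) and 580 bp of H3K27ac that scored 34.5 (percentile 1.34), a call lost among peaks scoring at least 100. ITGA7, the α7 laminin receptor of muscle, had 3296 bp of H3K4me3 at 3100 and 1515 bp of H3K27ac at 318, but the end of ITGA7 that they covered lies at the start of BLOC1S1, a lysosome biogenesis gene. ITGA2B (platelets), ITGA8 (mesenchyme) and ITGA10 (cartilage) had neither mark at the start. ITGA10 had 4624 bp of H3K27ac at 2191 and 2 H3K4me3 peaks at its far end.

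ITGA9 and ITGA11 held H3K27ac inside the gene but away from the start. ITGA9 (3:37452141-37823507) had 9 H3K27ac peaks in its span, none of them on H3K4me3, the strongest 4664 bp wide with a score of 1143 and 198868 bp inside its lower-coordinate end. ITGA11, a collagen receptor chain of fibroblasts, had 2 H3K27ac peaks inside, of 2890 and 2312 bp with scores of 557 and 188, the nearer 65834 bp from its start.

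Among stromal laminin chains LAMB2 and LAMA4 had both marks and LAMA1, LAMA2 and LAMC3 had H3K4me3 only. LAMB2 (3:49121114-49133050, minus strand), the β2 chain of nerve-muscle junction and kidney, had 3956 bp of H3K4me3 at 3100 and 2846 bp of H3K27ac at 883. LAMA4 (6:112107931-112254985, minus strand), the α4 chain of vessel walls, had 4851 bp of H3K4me3 at 3100 and 1814 bp of H3K27ac at 468, followed by further H3K27ac peaks of 3227 and 2163 bp, the last of which ended 11751 bp from the listed start. LAMA1, the α1 chain of early embryos, had 3051 bp of H3K4me3 at 3100 and 6 H3K27ac peaks inside, of which the strongest scored 271.

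LAMA2 (6:128883138-129516566, plus strand), the α2 chain of muscle, had the weakest H3K4me3 start of the members with that mark, 946 bp at a score of 48.1. It held 8 H3K27ac peaks over 633429 bp, and 7 of them scored between 32.5 and 69.3. The eighth, 3091 bp wide with a score of 2537, lay 606598 bp from the start, over 584 bp of H3K4me3, on the uncharacterised gene LOC102723409. LAMC3 (9:131009174-131094473), the γ3 chain, had 1844 bp of H3K4me3 at 1005 at its lower-coordinate end and an H3K27ac peak of 2664 bp with a score of 1523 that lay 38656 bp inside and overlapped no H3K4me3.

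**Figure D3:**
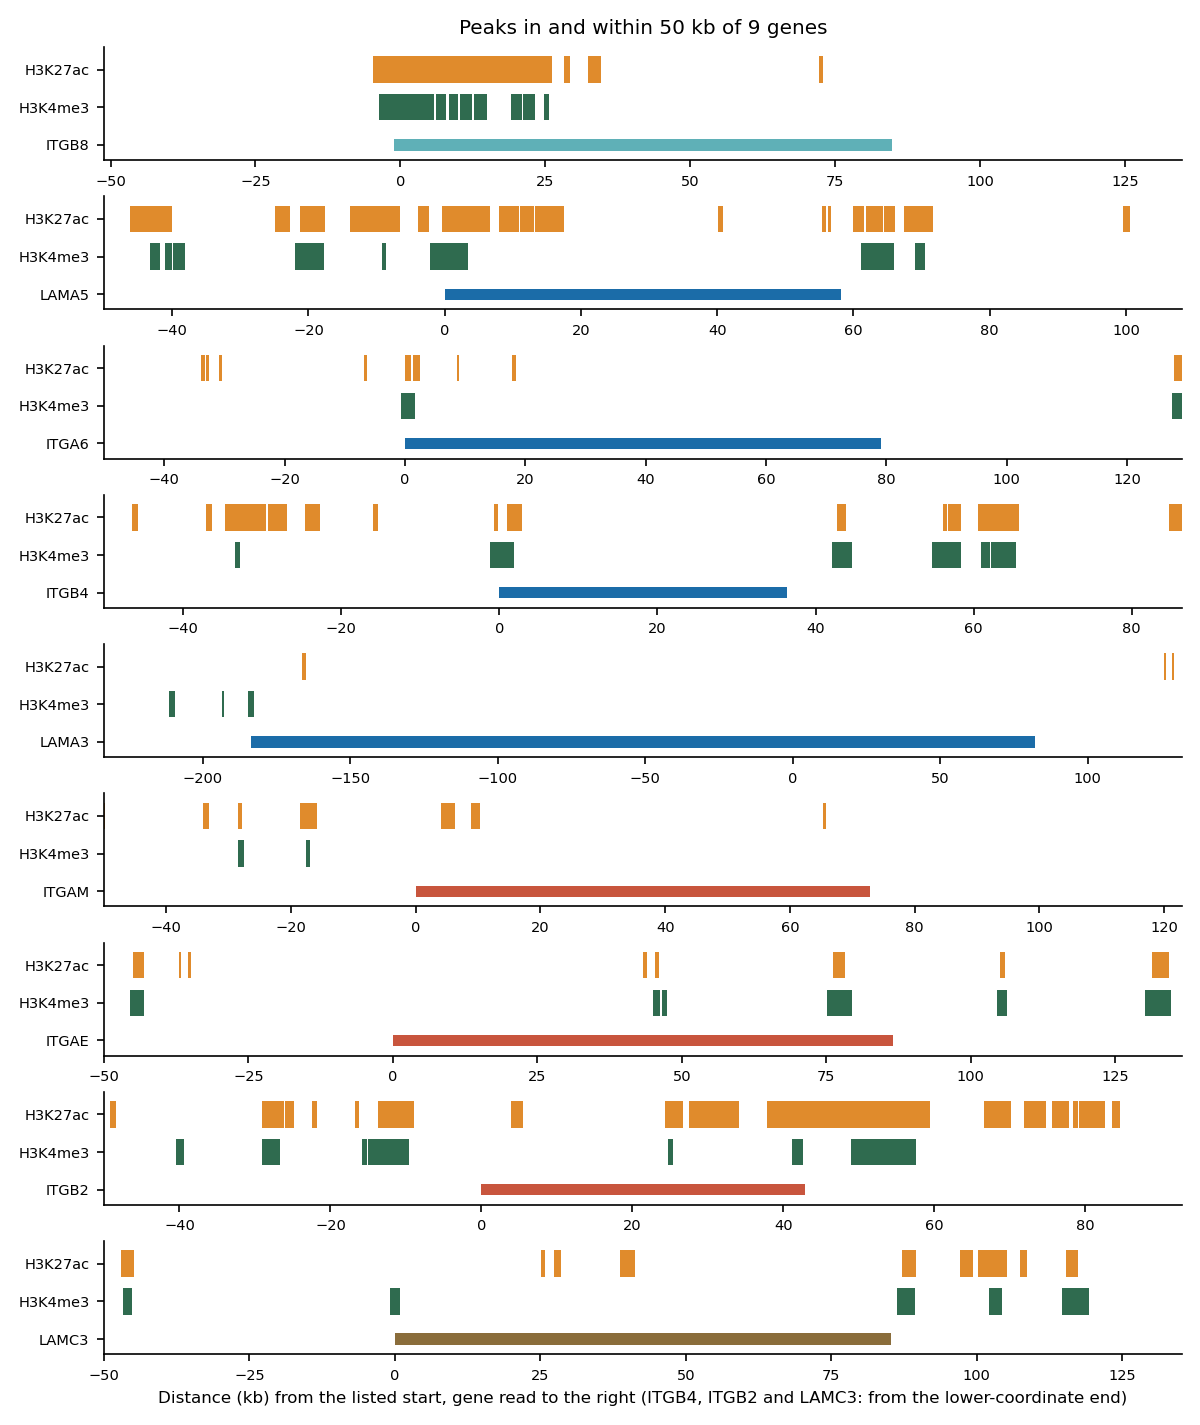
Peaks of H3K27ac and H3K4me3 (boxes) in and within 50 kb of 9 members (gene bars, coloured by class), by distance in kb. ITGB8 has broad H3K27ac as far as 26169 bp from its listed start, LAMA3 has neither mark at its internal start at 0, and LAMC3 has its strongest H3K27ac peak 38656 bp inside the gene.

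Counting all H3K27ac peaks in a window put the αv receptor genes first, as the starts did, but ordered the other classes differently. The median density over the gene and 50 kb either side was 5.58 peaks per 100 kb for αv receptor genes, 2.57 peaks per 100 kb for epithelial basement membrane genes, 3.36 for stromal and 4.44 for leukocyte genes, against 3.96 for all protein-coding genes. Inside the span 31 of 36 members had an H3K27ac peak, against 71.5% of all protein-coding genes, and 31 had an H3K4me3 peak, against 74.5%. These shares are not adjusted for length, and the median span was 79240 bp for members and 24170 bp for all genes. All 36 members had at least 1 H3K27ac peak in the window (91.7% of all genes had), and ITGAX was the only member with no H3K4me3 peak there (89.4% of all genes had one). Peaks at the starts of protein-coding genes outside the class made up 30% of H3K27ac peaks in the leukocyte windows, 24% in the stromal, 16.2% in the epithelial basement membrane and 4.35% in the αv receptor windows. ITGAL, with 13 H3K27ac peaks, had all of them outside the gene, some at the starts of DCTPP1, SEPHS2, ZNF768 and other neighbours. Of the 13, 3 lay more than 2.5 kb from every start used. Inside the gene, the median share of the span under H3K27ac was 3.26% for epithelial basement membrane, 7.14% for αv receptor, 4.26% for stromal and 0.288% for leukocyte genes. The classes overlapped on both measures, from 0% to 30.2% of the span in the epithelial basement membrane class and from 0% to 36.4% in the leukocyte class.

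**Figure D4:**
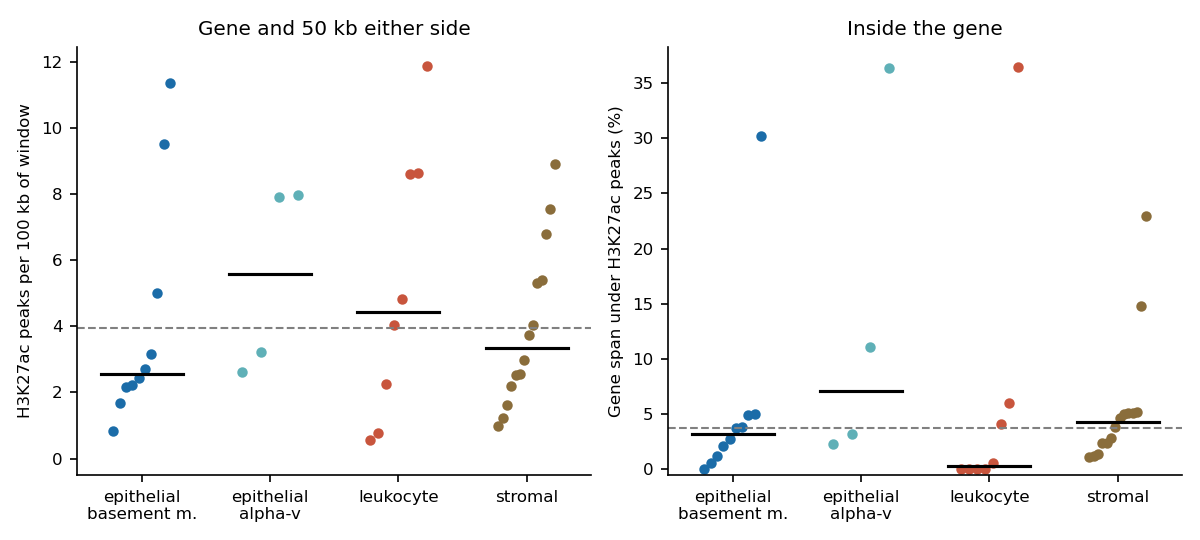
H3K27ac peaks per 100 kb of the gene and its 50 kb flanks (left) and share of the gene span under H3K27ac peaks in % (right), 1 point per gene, with class medians (black bars) and the median of all protein-coding genes (dashed line). Leukocyte genes have the highest median of the 3 larger classes on the left (4.44) and the lowest on the right (0.288%).

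Of the 114 H3K27ac peaks in the members' spans 28.9% overlapped H3K4me3, against 34.8% of the whole list, and of the 58 H3K4me3 peaks 65.5% overlapped H3K27ac, against 71.0%. The median H3K27ac peak in the spans measured 1081 bp against 865 bp in the whole list, and the median H3K4me3 peak 1866 bp against 1667 bp. At starts with both marks the median widths of the 17 members were 1607 bp of H3K27ac and 3296 bp of H3K4me3, against 2040 and 3742 bp over all 11525 such genes.

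The machinery that links integrins to the cell interior and to the basement membrane was marked at most of its starts. Of 24 such genes, 17 had both marks (70.8%, against 57.7% of all protein-coding genes). Talin-1 gene TLN1, vinculin gene VCL, integrin-linked kinase gene ILK and focal adhesion kinase gene PTK2 were among them, as were PLEC and DST, which encode the hemidesmosome linkers plectin and dystonin. DAG1, the dystroglycan laminin receptor, had 6779 bp of H3K27ac with a score of 3128. TLN2, FERMT1, NID1 and BCAM had H3K4me3 only. FERMT1, the kindlin of epithelia, had no H3K27ac peak within 50 kb. COL17A1, the transmembrane collagen of hemidesmosomes, and NID2, a nidogen, had neither mark at the start. FERMT3, the kindlin of blood cells, had H3K27ac only, with a score of 51.7. Among the genes of this list with a listed start, 11 of 17 had both marks (64.7%), near the 60% of all such protein-coding genes.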

How the data were processed

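H3K27ac and H3K4me3 were profiled by chromatin immunoprecipitation and sequencing, 1 library each, with 1 input. Per the labels' protocols, cross-linked chromatin was cut by sonication and micrococcal nuclease; what this did to peak edges was not tested. The submitters' processing notes name MACS 1.4, the build hg38 and the aligner Bowtie2 (version: not given in the sources used here). For each mark the authors deposited a peak list named as called against the input, with a score for every peak. Of 72895 H3K27ac and 32045 H3K4me3 peaks, 72894 and 32043 on chromosomes 1 to 22 and X were used, with positions counted from 1. The score does not rank the strongest H3K4me3 peaks, since 33.9% of them score 3100 or more. The reads behind the lists and the input's own signal were not analysed here.

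Gene spans and starts came from RefSeq (GRCh38.p14), with listed starts for 15812 of 19974 protein-coding genes and either end otherwise. The listed starts are not every start of a gene. Classes and lists were chosen with earlier results of these data known. All 36 members are named, with genes sharing a start peak; other neighbours and annotated genes under a named peak were picked after their values were seen. Alternatives were a score minimum, other windows and flanks, merged peaks and equal list lengths. Overlap counts matched bedtools 2.31.1 in every window (0 differences), and the state calls recovered 200 of 200 planted genes in simulated data. Python 3.11.15, numpy 2.4.6, pandas 2.3.3, scipy 1.17.1 and matplotlib 3.10.9 were used.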

Additional observations from a re-analysis of the deposited data

How the results depend on the processing

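No paired analysis was possible because each mark has 1 library. Of 57 alternative values, 6 moved past their limit, 1.5 times for counts and 1 SD between the genes of a class for densities. Those that moved were all counts. The density limit was wide, as leukocyte genes ran from 0.55 to 11.9 peaks per 100 kb. A fall of their median from 4.44 to 1.96 stayed within it, so the densities could hardly move. Counting peaks anywhere across the gene span plus 1 kb raised the genes with both marks to 31 of 36 members, 3 of 8 leukocyte and 14 of 14 stromal genes, which widens the searched sequence by its own construction. A window of 2.5 kb raised leukocyte genes to 2 of 8, by ITGAL, whose marked neighbour ZNF768 lies at that end. With only genes that have a listed start, an alternative chosen after seeing the data, leukocyte genes had 0 of 4 and the adhesion list 11 of 17 (64.7%). Of all protein-coding genes with a listed start 60% had both marks. The counts fall in part because fewer genes were left. Scores of at least 100 left 13 of 36 members, 6 of 10 epithelial basement membrane, 3 of 4 αv receptor and 3 of 14 stromal genes with both marks. The same minimum lowered the median densities from 2.57 to 1.19 (epithelial basement membrane), 4.44 to 1.96 (leukocyte) and 3.36 to 1.39 (stromal), and that of all genes from 3.96 to 1.78. Flanks of 25 kb put the median density of leukocyte genes (3.09) below that of stromal genes (3.37), and counting only peaks more than 2.5 kb from starts did the same (2.34 and 2.48), so that the order of these classes changed. The number of reads, and with it the detection limit, is unknown.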
